A study of Mus musculus with 2 samples.

Results

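The cytosolic ribosomal protein genes were followed in total RNA of the mouse adrenal gland. They were taken as every gene typed as protein coding in GENCODE M21 whose symbol begins with Rpl or Rps and a digit, together with Rplp0, Rplp1, Rplp2 and Rpsa. Rps6k kinase genes and symbols with "-ps", the mark of a pseudogene, were left out. The rule gave 86 genes of the 55536 annotated genes in the tables. Of these, 77 encode standard proteins of the ribosome and are called canonical here, 46 of the large and 31 of the small subunit. The other 9 are related genes: the paralogues Rpl3l, Rpl7l1, Rpl10l, Rpl22l1, Rpl36al, Rpl39l, Rps27l and Rps27rt, and Rps19bp1, which encodes a partner of a ribosomal protein rather than a ribosomal protein.

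The samples were adrenal glands of 2 adult male mice of strain B6CASTF1/J, the hybrid offspring of a C57BL/6J and a CAST/EiJ parent, 8 to 10 months old. The labels form 1 group without a treatment, number the animals, 2 and 4, as biological replicates 1 and 2 under 1 shared donor identifier, and do not mention pooling. Each library was made from 300 ng of total RNA with a directional kit and carried ERCC spike-ins, which are synthetic RNAs of known amount. Expected counts on annotated genes summed to 29994901 and 33987434, and the mm10 assembly used by the authors is that of the C57BL/6J parent. Cortex and medulla were both present: the cortical genes Star, Hsd3b1, Cyp11a1 and Cyp21a1 had mean levels from 3019 to 5876 TPM (a level per transcript length, scaled to the same total in each library), and the chromaffin genes Chga, Th and Dbh from 219.6 to 1105 TPM. In bulk tissue a smaller number of cells of a type and less RNA per cell cannot be told apart.

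A cytosolic ribosome joins a small subunit, which reads the mRNA, to a large subunit, which forms the peptide bond, and each carries nearly all of its proteins as a single copy. Their mRNAs usually begin with a run of pyrimidines, the terminal oligopyrimidine tract, through which growth signals control their translation. Ribosomal protein genes are also a classic source of processed pseudogenes, intronless genomic copies made from their mRNAs, which can be close to identical with the parent gene.

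Many members share sequence with paralogues or copies, so some of the sequences concerned are given first. All are coding sequences without the stop codon from the GENCODE M21 transcripts, 5′ to 3′. The first belongs to Rpl41, which had the highest level of all members and the shortest coding sequence, at 75 bases (chromosome 10, 128548114 to 128549305, minus strand).
Rpl41: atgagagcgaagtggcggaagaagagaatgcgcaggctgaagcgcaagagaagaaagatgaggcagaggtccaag

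The next pair shows a paralogue that short reads can separate from its parent: Rps27 (chromosome 3, 90212522 to 90213651, minus strand) and Rps27l (chromosome 9, 66946086 to 66949516, plus strand), both of 252 bases. Capitals mark the 60 bases at which they differ. Rps27rt (chromosome 9, 114982366 to 114982739, minus strand) has the same 252 coding bases as Rps27 without a difference, so it needs no line of its own.
Rps27: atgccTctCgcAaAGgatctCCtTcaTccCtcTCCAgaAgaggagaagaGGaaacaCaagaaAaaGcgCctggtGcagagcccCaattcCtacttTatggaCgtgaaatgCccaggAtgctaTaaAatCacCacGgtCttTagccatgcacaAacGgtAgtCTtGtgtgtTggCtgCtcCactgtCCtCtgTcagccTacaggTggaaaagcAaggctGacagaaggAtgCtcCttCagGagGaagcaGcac
Rps27l: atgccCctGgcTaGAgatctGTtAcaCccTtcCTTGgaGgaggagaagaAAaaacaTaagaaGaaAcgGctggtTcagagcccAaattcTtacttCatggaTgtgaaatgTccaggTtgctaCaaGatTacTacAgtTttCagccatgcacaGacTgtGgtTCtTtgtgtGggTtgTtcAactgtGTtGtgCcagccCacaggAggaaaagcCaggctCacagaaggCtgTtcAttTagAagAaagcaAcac

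Rpl39 (X chromosome, 37082520 to 37085402, minus strand) and its paralogue Rpl39l (chromosome 16, 10170226 to 10174911, plus strand) are shown as a case of a parent with 2407 and 2921 counts beside a paralogue with 0 and 1. They differ at 23 of 153 bases, in capitals.
Rpl39: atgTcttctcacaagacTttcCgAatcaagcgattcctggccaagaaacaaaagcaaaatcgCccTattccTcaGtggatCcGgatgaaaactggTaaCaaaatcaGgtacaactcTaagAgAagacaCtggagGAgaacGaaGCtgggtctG
Rpl39l: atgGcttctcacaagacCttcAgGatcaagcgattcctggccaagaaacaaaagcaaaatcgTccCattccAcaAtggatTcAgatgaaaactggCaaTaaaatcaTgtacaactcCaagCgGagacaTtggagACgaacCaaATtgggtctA

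Ribosomal protein mRNAs were among the most abundant coding transcripts of the gland. The 86 genes together took 6.42% of the TPM of nuclear protein-coding genes in replicate 1 and 6.58% in replicate 2 (6.50 ± 0.111%, SD, n = 2, as for all levels here). Their share of the counts of those genes was lower, 1.62 ± 0.0115%, since counts do not divide by length and these mRNAs are short. At 1 TPM or more in both libraries 83 of the 86 were detected, including all 77 canonical genes, against 56.3% of the 22015 nuclear coding genes. The median member stood at 245.2 TPM in replicate 1 and 276.6 in replicate 2, which was 19.9 ± 0.482 times the median of all detected coding genes. Ranked by mean TPM among coding genes, 27 of the members were among the first 100 and 53 among the first 200.

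**Figure D1:**
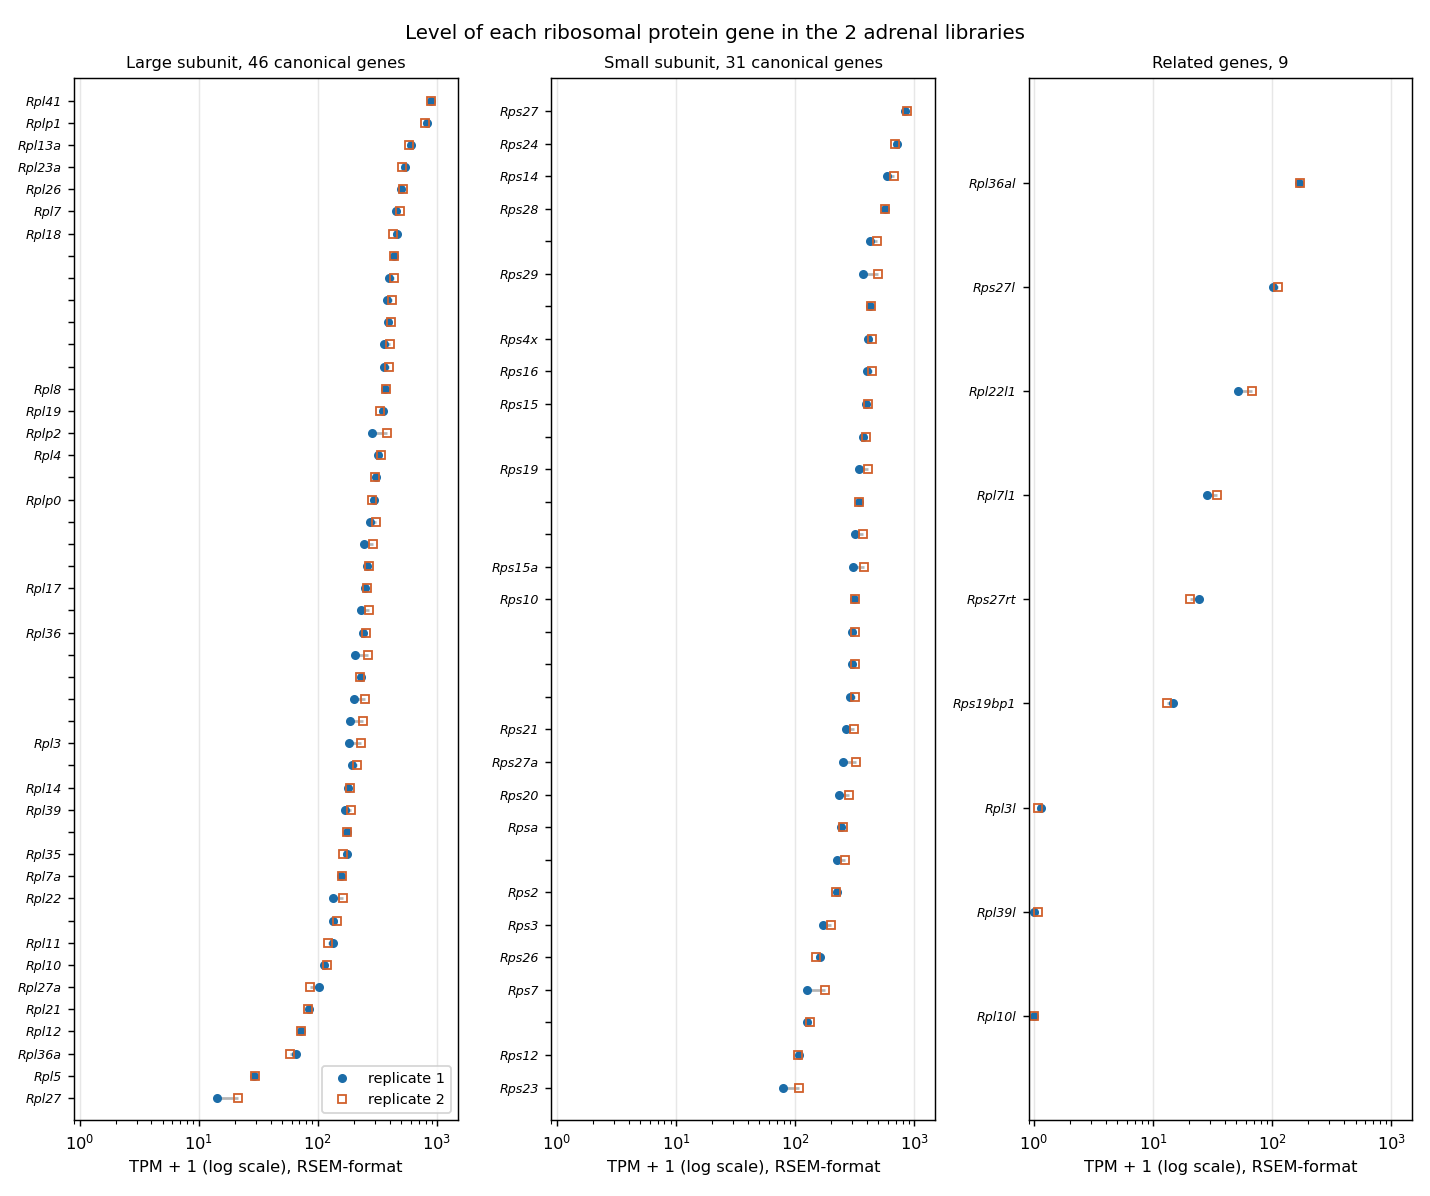
TPM + 1 of each gene on a log axis in replicate 1 (filled circles) and replicate 2 (open squares), from the RSEM-format tables, for canonical large subunit genes, canonical small subunit genes and the 9 related genes, each ordered by mean level. Names are given for genes named in the text. Most canonical genes lie between 100 and 1000 TPM, and Rpl3l, Rpl39l and Rpl10l lie at or near 0 in both libraries.

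Canonical genes did not share 1 level, although their proteins are present in nearly equal numbers in a ribosome. The lower and upper quartiles over the 77 genes were 182.5 ± 10.6 and 395.0 ± 22.6 TPM. Of these genes 70 had a mean of at least 100 TPM, 19 of at least 400 and 9 of at least 500. The order of levels was close between the animals, with a Spearman correlation of 0.986 across these 77 genes. It was less close between these tables and a second set of tables made from the same reads, at 0.769 on mean levels. The highest mean was 52.9 times the lowest here and 21.8 times in the second set, so order and spread depended on the quantification. Both correlations are descriptions across genes that share libraries and lengths.

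The highest level belonged to Rpl41, a very small basic protein of the large subunit, with 893 TPM in replicate 1 and 890 in replicate 2. Rps27, a zinc-binding protein of the small subunit, followed with 833 and 872 TPM. Rplp1 (chromosome 9, 61913284 to 61914542, minus strand), an acidic protein of the stalk, had 822 and 795 TPM. The values of Rpl41 and of Rplp1 were slightly lower in replicate 2 and that of Rps27 slightly higher. Rps24 had 713 and 682 TPM, and Rps14, a protein of the platform of the small subunit, 594.5 and 676.8. In the second set of tables Rplp1 had 424 and 492 TPM and so lay below Rps24, with 648 and 678. Rpl13a (chromosome 7, 45125558 to 45128761, minus strand), often used as a reference gene, ranked as the 42nd coding gene with 598 and 579 TPM.

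At the low end, Rpl27 (chromosome 11, 101442298 to 101445529, plus strand) had 13.3 TPM in replicate 1 and 20.4 in replicate 2. Rpl5 (chromosome 5, 107900502 to 107909005, plus strand) had 28.3 and 28.4, Rpl36a 64.6 and 56.9, Rpl12 70.5 and 71.0, and Rpl21 82.5 and 80.9. All 5 are of the large subunit, as are 46 of the 77 canonical genes. Every 31-base stretch of their coding sequence is in at least 1 other annotated gene, as in 34 of the 86 members. In the second set of tables, made from the same reads, their levels were 201 and 203 for Rpl27, 90.9 and 91.3 for Rpl5, 133.7 and 146.6 for Rpl36a, 49.9 and 55.9 for Rpl12, and 187 and 199 for Rpl21. Rpl27, Rpl5, Rpl36a and Rpl21 were thus higher in the second set and Rpl12 lower, and Rpl5 and Rpl12 were under 100 TPM in both.

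Small subunit genes had the higher median in both libraries of the first set of tables, but not in both of the second. The median canonical small subunit gene stood at 305.2 TPM in replicate 1 and 323.9 in replicate 2, and the median large subunit gene at 240.9 and 263.8. The ratio was 1.25 ± 0.0273. In the second set of tables it was 0.974 and 1.05 in the 2 libraries (1.01 ± 0.0545), so that no order of the subunits held in both.

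The stalk is the lateral arm of the large subunit that recruits elongation factors. It is built on Rplp0, with Rplp1 and Rplp2 bound to it as dimers in more than 1 copy, and Rpl12 at its base. Rplp0 had 294.7 and 285.9 TPM and Rplp2 284.4 and 379.9. Rplp2 was thus at about the level of Rplp0 in replicate 1 and above it in replicate 2, with a ratio of 1.15 ± 0.257. In the second set of tables that ratio was 0.780 in replicate 1 and 1.18 in replicate 2, so it lay on either side of 1. The ratio of Rplp1 to Rplp0 was 2.79 in replicate 1 and 2.78 in replicate 2, but 1.27 and 1.54 in the second set of tables. Rpl12 was the lowest of the 4, at 0.244 ± 0.00643 of the level of Rplp0, or 0.162 ± 0.0186 in the second set. Gm10275, identical with Rpl12 over 495 coding bases, had 255.0 and 248.85 TPM in the first set. Gm8730, which differs from Rplp0 at 12 of 951 bases, had 129.4 and 124.55. The level of Rpl12, and its place among the 4, are therefore uncertain in both sets.

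Rpl5 and Rpl11 bind 5S ribosomal RNA, and outside the ribosome this particle restrains the p53 regulator Mdm2. Rpl11 had 132.1 and 121.3 TPM, which put Rpl5 at 0.224 ± 0.0142 of its level, or at 0.344 ± 0.00712 in the second set of tables. Gm15500, identical with Rpl5 over 891 coding bases, had 251.5 and 274.7 TPM in the first set. Gm10288, which differs from Rpl11 at 1 of 534 bases, had 137.4 and 187.5. The ratio of Rpl5 to Rpl11 is therefore uncertain in both sets. The 7 proteins around the tunnel exit, where the new chain leaves the ribosome, ran from 167.5 TPM for Rpl35 to 520.8 for Rpl23a, with Rpl26 at 507 ± 19.9, Rpl19 at 341 ± 11.8 and Rpl17 at 251.9 ± 8.67. Of the 4 proteins at the decoding site and the mRNA path, Rps15 stood at 403 ± 11.2 TPM, Rps2 at 220.9 ± 5.30, Rps3 at 185 ± 18.5 and Rps23 at 92.4 ± 20.9. In the second set of tables their means were 363.5, 245.3, 121.6 and 317.1 TPM, so Rps3 and not Rps23 was the lowest there. Rpsa, the small subunit protein also known as the laminin receptor, had 239.4 and 249.1 TPM.

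The 9 listed genes of Diamond-Blackfan anaemia, an inherited failure of red cell production caused by ribosomal protein mutations, were all detected, from 28.4 TPM for Rpl5 to 697 for Rps24. Rps19 and Rps10 stood at 373.7 ± 43.5 and 314.4 ± 3.54 TPM. There are 4 members on the X chromosome. Rps4x had 411 and 437 TPM, Rpl39 168 and 190, Rpl10 110.5 and 117.1, and Rpl36a the 64.6 and 56.9 given above. In the second set of tables Rpl10 was the highest of the 4 with 540 and 583 TPM, and Rps4x had 340 and 374.

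Fau and Rack1, ribosomal protein genes whose symbols lie outside the rule, were within the range of the canonical genes. Fau, which makes Rps30 fused to a ubiquitin-like protein, stood at 381 ± 1.71 TPM and the scaffold protein Rack1 at 241.7 ± 4.99. The 78 genes of mitochondrial ribosomal proteins, which serve the separate ribosome of the mitochondrion, all reached 1 TPM, and their median was 28.0 ± 1.67 TPM. Mrpl33, Mrps21 and Mrpl52 stood highest among them at 106 ± 3.79, 72.9 ± 2.14 and 64.9 ± 2.28. The median canonical cytosolic gene was at 10.4 ± 0.269 times that level, and at 11.3 ± 0.0775 times in the second set of tables.

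Other genes of translation were lower on the median than the canonical genes at 290.2 ± 24.8 TPM. The 6 elongation factor genes had a median of 177.9 ± 14.9 TPM, with Eef1a1, which brings aminoacyl-tRNA to the ribosome, at 2265 ± 19.7, Eef2 at 589.8 ± 35.8 and Eef1b2 at 179.6 ± 24.1. For the 27 initiation factor genes it was 65.7 ± 2.49 TPM, with the highest values for Eif1 at 393 ± 15.5, Eif4g2 at 307 ± 25.6 and Eif4a2 at 279.7 ± 12.03. The 8 other genes known for a terminal oligopyrimidine tract stood lower, at a median of 98.9 ± 9.83 TPM, with Tpt1 at 935 ± 3.10, Naca at 214 ± 8.88 and Pabpc1 at 164 ± 19.1. Ribosome biogenesis genes had a median of 17.7 ± 0.629 TPM over 27 genes, with Npm1 at 94.5 ± 7.62, Ncl at 63.2 ± 7.09 and Nop56 at 47.3 ± 6.399. The 11 genes of RNA polymerase I and its factors, which transcribe ribosomal RNA, were close to that at 17.6 ± 0.318 TPM, with Ubtf, Polr1a and Polr1d at 37.8 ± 0.969, 34.0 ± 2.93 and 33.1 ± 3.99. For 10 genes of translation control the median was 23.4 ± 2.77 TPM, and the highest was Larp1, which binds oligopyrimidine tracts, at 37.7 ± 3.03, Eif4ebp2 at 33.5 ± 0.099 and Larp4 at 30.3 ± 2.38.

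The paralogues known from other tissues, Rpl10l, Rpl39l and Rpl3l, were at or near 0. Rpl10l (chromosome 12, 66283379 to 66284401, minus strand), an intronless gene used in male germ cells, had 0 counts in both libraries, which allows up to 3 counts in each. Its parent Rpl10 had 2179 and 2496 counts. Rpl39l, also known from male germ cells, had 0 and 1 count against 2407 and 2921 for Rpl39. Rpl3l (chromosome 17, 24727820 to 24736143, plus strand), the paralogue of striated muscle, had 4 and 2 counts against 6221 and 7944 for Rpl3. The 2 pairs of paralogue and parent share 84.7% of bases for Rpl10l and 84.97% for Rpl39l, and Rpl3l shares no 31-base stretch with another gene. Markers of the tissues these genes are known for were low as well. The germ cell genes Prm1, Tnp1 and Tnp2 were at 0 in both libraries, Prm2 at 0 and 0.06 TPM and Ddx4 at 0.15 and 0.10. Among the skeletal muscle genes Mylpf had 2.04 and 2.30 TPM and Acta1 0.58 and 1.65, and the others were under 1 TPM in both.

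The other related genes had counts in both libraries of the first set of tables, and all but Rps27rt also in the second. Rpl36al (chromosome 12, 69182731 to 69184083, minus strand), which encodes nearly the same protein as Rpl36a, had 168 and 170 TPM, above the 64.6 and 56.9 of Rpl36a. It took 73.6 ± 1.91% of the TPM of this pair, but 45.5 ± 1.78% in the second set of tables, so the order of the pair turned with the quantification. Their coding sequences match at 279 of 318 bases. Rps27l, a paralogue induced by p53, had 100.6 and 110.7 TPM, or 11.0 ± 0.349% of the pair with Rps27, and 13.7 ± 0.0804% in the second set. Rpl22l1, an RNA-binding paralogue whose level Rpl22 is known to hold down, had 50.5 and 66.2 TPM, or 28.3 ± 1.03% of the pair with Rpl22, and 30.6 ± 1.23% in the second set. Rpl7l1, which acts in assembly of the large subunit, had 27.4 and 33.4 TPM, or 6.06 ± 0.493% of the pair with Rpl7. Rps27rt, an intronless copy of Rps27, had 23.2 and 19.3 TPM but 0 in both libraries of the second set. Its coding bases are those of Rps27, so its own level is uncertain. Rps19bp1, the partner of Rps19, had 13.7 and 12.2 TPM.

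The authors' tables hold 2 quantifications of the same reads, here named after the programs whose column headers they carry, RSEM (the first set) and kallisto (the second set). After both were set to a common total over nuclear coding genes, 15 of the 83 members of at least 1 TPM were at least 1.5-fold higher by kallisto, while 2.28% of all 12904 such coding genes were. At least 1.5-fold lower were 4 members, while 1.24% of all such genes were. The median log2 ratio of kallisto to RSEM was 0.11 over the members and -0.07 over all coding genes in that set.

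The widest gap among genes higher by kallisto was that of Rpl27, with 13.3 and 20.4 TPM by RSEM and 201 and 203 by kallisto, a log2 ratio of 3.60. Rpl10 (X chromosome, 74270812 to 74273135, plus strand) had 110.5 and 117.1 against 540 and 583 TPM (2.38). For Rps23 the values were 77.6 and 107.1 against 298 and 336 (1.86), for Rpl5 28.3 and 28.4 against 90.9 and 91.3 (1.74), and for Rpl27a 101.1 and 84.4 against 244.6 and 231.9 (1.44). In each of these 5 genes both libraries were higher by kallisto, and the 2 quantifications did not overlap. In the other direction the gap of Rps27rt, at 0 by kallisto, was wider still, with a log2 ratio of -4.48. Rpl36 had 237 and 251 TPM by RSEM against 77.9 and 92.5 (-1.42), and Rplp1 822 and 795 against 424 and 492 (-0.74). Rps15a had 305 and 376 against 170 and 221 (-0.71), and Rps3 172 and 198 against 118 and 125 (-0.51, within 1.5-fold). On deposited TPM, the values of the 2 programs did not overlap in any of these 10 genes. The genes were picked for the widest gaps, so the lack of overlap is not a separate result. The log2 ratios are means over both libraries on the rescaled TPM + 1.

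**Figure D2:**
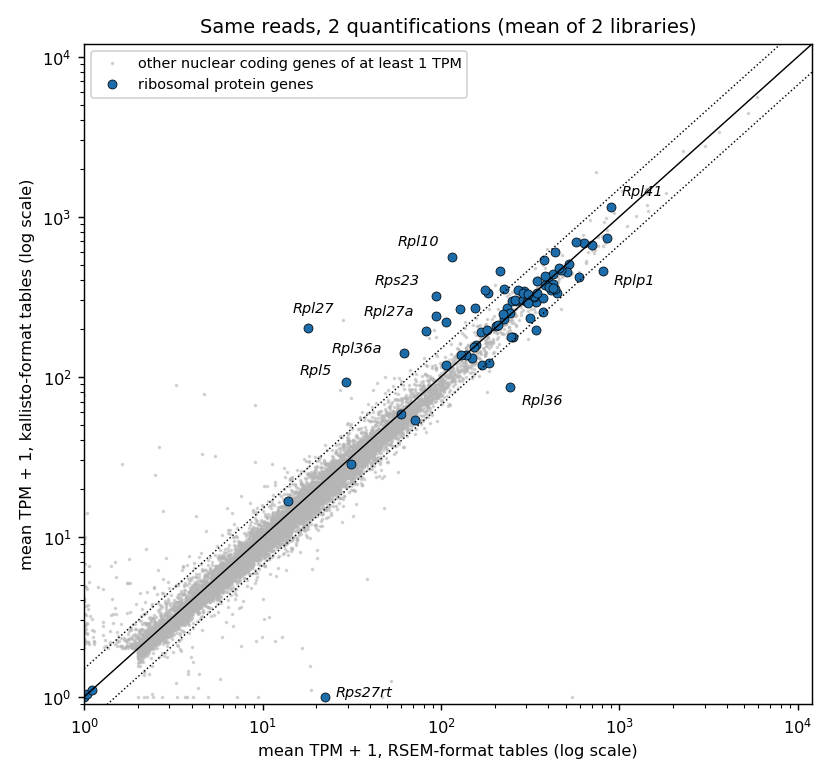
Mean TPM + 1 over both libraries by kallisto against RSEM, both on log axes, for the ribosomal protein genes (blue) and other nuclear coding genes of at least 1 TPM (grey). The solid line is equality and the dotted lines are 1.5-fold on the deposited TPM. Rpl27, Rpl10, Rps23 and Rpl5 lie far above the line, and Rpl36, Rplp1 and Rps27rt below it.

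Copies of the members were counted directly from sequence. A stretch of 31 bases, called a word here, was sought in every other annotated transcript, and a gene with at least 50% of a member's coding words was called its copy. The median member had 96.3% of its coding words in some other gene, and in 34 members all were. Only Rpl3l and Rps19bp1 had none, and Rpl8 (11.1%), Rpl39l (13.8%) and Rps3 (19.0%) had few. Of the members 71 had at least 1 copy. These copies were 300 genes outside the member set, 284 of them typed as pseudogenes and 14 as protein coding. For 18 members the whole coding sequence lay unchanged in at least 1 of 24 copies.

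Copies received 105405 and 117910 expected counts by RSEM, or 22.8 ± 0.242% of the counts of members and copies together. By kallisto they received 57403 and 65675 counts, or 12.9 ± 0.0327%. The sums of members and copies were much closer, at 458548 and 520718 by RSEM and 447078 and 509671 by kallisto. By RSEM 12 members had a copy with more counts than themselves in both libraries, and by kallisto 4 did. The same 4, Rpl5, Rpl12, Rpl35 and Rps7, had one in both.

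Rpl10 showed the largest exchange. By RSEM it had 2179 and 2496 counts while Rpl10-ps3 (chromosome 9, 50344201 to 50344968, minus strand) had 9945 and 11184. By kallisto Rpl10 had 12483 and 14086 and Rpl10-ps3 none. The copy matches Rpl10 at 642 of 642 coding bases and is typed as protein coding, although the symbol rule leaves it out. With its copies Rpl10 summed to 12134 and 13692 by RSEM and 12499 and 14100 by kallisto.

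Rpl27 had 215 and 285 counts by RSEM, while its identical copy Gm11518 (chromosome 11, 94037218 to 94037628, minus strand) and a further identical copy had 1272 and 1383 each. By kallisto Rpl27 had 2850 and 3015, with 0 and 52.3 on each of these copies. Rps23 had 1071 and 1429 by RSEM beside 4201 and 5079 on Rps23-ps1 (chromosome 3, 37714740 to 37715164, plus strand), and 4913 and 5783 by kallisto beside 627 and 994. The split turned over between the programs in both genes, in both libraries.

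For Rpl5 and Rpl12 the copy led in both programs. Gm15500 (chromosome 7, 114705217 to 114706235, minus strand), typed as a transcribed processed pseudogene and identical with Rpl5 over 891 of 891 coding bases, had 6433 and 7597 counts by RSEM and 5295 and 6402 by kallisto. Rpl5 itself had 1133 and 1310 by RSEM and 2603 and 2891 by kallisto. Gm10275 (chromosome 10, 29698746 to 29699380, minus strand), identical with Rpl12 over 495 bases, had 2828 and 2948 counts against 1370 and 1453 for Rpl12 by RSEM. Gm6472 (X chromosome, 152909505 to 152910155, minus strand) differs from Rps7 at 3 of 582 bases and had 3220 and 3694 counts against 2033 and 2675. Gm2000, a copy of Rpl35 typed as protein coding, had 2321 and 2658 against 2186 and 2160. From coding words alone the reads cannot be placed on parent or copy in the pairs without a difference, so the levels of these genes are uncertain, and their sums with the copies depend less on the program.

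**Figure D3:**
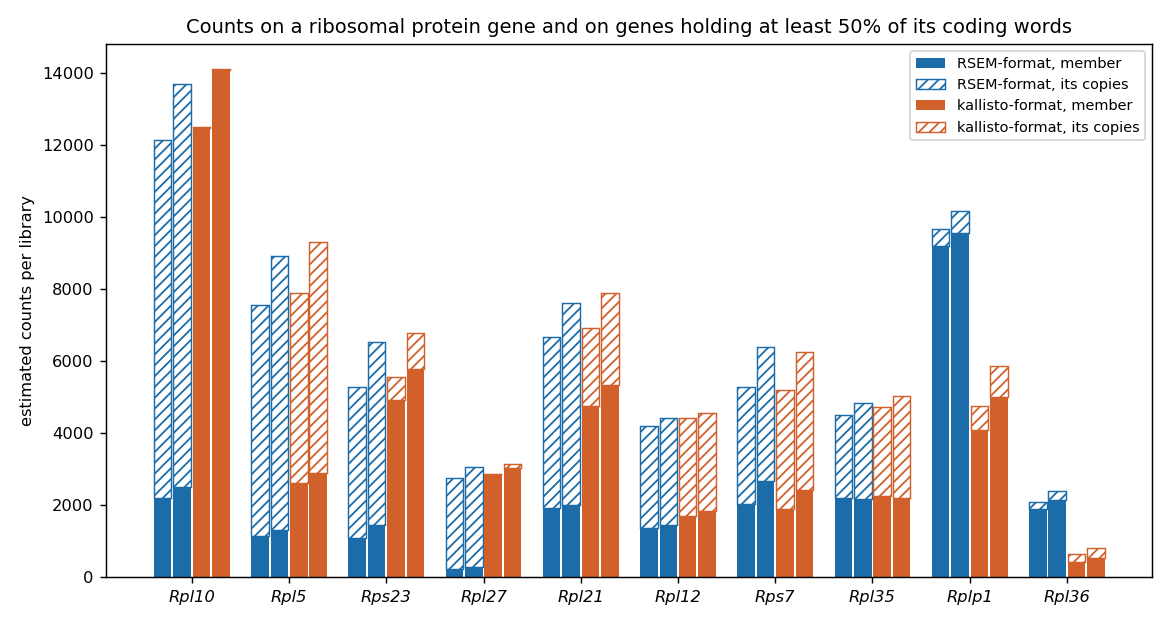
Estimated counts per library (vertical axis, from 0) for 10 members by RSEM (blue) and kallisto (orange), replicate 1 left and replicate 2 right of each pair, with filled bars for the member and hatched bars on top for its copies. Filled heights differ between programs for Rpl10, Rpl5, Rps23, Rpl27 and Rpl21 while total heights are close, and total heights differ for Rplp1 and Rpl36.

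Over the 71 members with copies, 16 were at least 1.5-fold apart between programs in counts set to a common total, where 2.07% of 14649 coding genes were, and 2 were after member and copies were summed. The 2 were Rplp1 and Rpl36, named here after their values were seen. Rplp1 summed to 9672 and 10177 by RSEM and 4760 and 5871 by kallisto, and Rpl36 to 2088 and 2384 against 627 and 792. Of the 12 members without a copy and with a mean of at least 10 counts, 0 were 1.5-fold apart. With 12 genes this cannot be told from the 2.07% of all coding genes. What separates the programs on Rplp1 and Rpl36 was not tested.

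The posterior standard deviation that RSEM reports for a count measures how firmly reads could be assigned. It exceeded 10% of the posterior mean count in 1 of 83 members (those averaging 10 counts or more), against 2.37% of the 14660 nuclear coding genes. That member was Rps27rt, at 17.9% and 22.8% in the 2 libraries. Next were Rpl27 at 7.96% and 9.00%, Rpl10 at 8.03% and 7.68%, Rps12 at 8.02% and 6.13%, and Rpl36a at 4.17% and 4.67%. The median member stood at 0.790%, where the median coding gene stood at 0, and 36 members exceeded 1%, against 7.96% of coding genes. In 15 members the posterior SD was larger than the square root of the count, the counting error of an independent read count, against 2.60% of coding genes. Rps21 and Rps19bp1 were among 3 members with a posterior SD of 0 in both libraries. The value describes assignment within 1 program: for Rpl10 it stood beside 2179 and 2496 counts by RSEM and 12483 and 14086 by kallisto.

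The 2 animals had nearly the same ribosomal protein mRNA levels. Counts were scaled with TMM factors (trimmed mean of M values), and the log2 ratio of replicate 2 to replicate 1 was taken on CPM + 1 (CPM, counts scaled by the library total). Over the 83 members averaging 10 counts or more the median was -0.03, with quartiles at -0.12 and 0.07. Over 18181 nuclear genes with the same minimum the median was 0.01, with quartiles at -0.16 and 0.20. None of the 83 members lay 2-fold apart, where 2.83% of all nuclear genes did. At that share only a few among 83 genes would, and the 2 sets were not matched for count. Of the members 32 were higher in replicate 2 and 51 lower, against 9436 and 8745 of all these nuclear genes, but the members' median moved around 0 with the scaling. It was -0.06 with TMM factors from coding genes, 0.00368 with total counts and 0.04 with spike-ins. No direction is therefore given for the group. With 1 animal on each side there is no replicate check and no p-value.

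**Figure D4:**
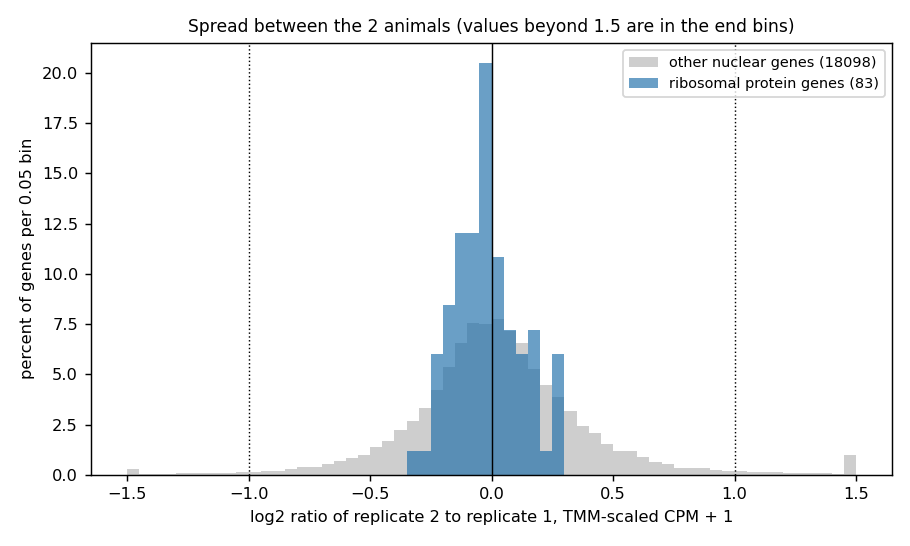
Distribution of the log2 ratio of replicate 2 to replicate 1 in bins of 0.05, as percent of genes, for the 83 ribosomal protein genes (blue) and the other nuclear genes (grey) with a mean of at least 10 counts. The ribosomal protein genes all lie between -0.32 and 0.30, inside the dotted lines that mark 2-fold.

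Rps29, a zinc-binding small subunit protein, had the highest ratio among members, with 3010 and 4311 counts and a scaled fold of 1.23 (95% interval 1.18 to 1.29, counting error only). Rps15a followed with 1.23 (1.16 to 1.29), Rpl22 with 1.20 (1.14 to 1.26), Rps27a, which makes its protein fused to ubiquitin, with 1.20 (1.15 to 1.25), and Rpl22l1 with 1.20 (1.08 to 1.34). By kallisto these 5 also had higher values in replicate 2, with log2 ratios from 0.18 for Rps27a to 0.30 for Rps29. Rpl22 and its paralogue Rpl22l1 were thus both among the 5 highest.

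At the lower end were Rps27rt with a fold of 0.768 (0.616 to 0.956), Rpl36a with 0.817 (0.735 to 0.907), Rps19bp1 with 0.835 (0.704 to 0.991), Rpl35 with 0.850 (0.800 to 0.902) and Rps26 with 0.857 (0.808 to 0.909). By kallisto the log2 ratio was -0.26 for Rps19bp1 and -0.21 for Rpl35, but 0.03 for Rpl36a and -0.04 for Rps26. Rps27rt had no counts there. Rpl13a had 8271 and 8694 counts, a fold of 0.904 (0.877 to 0.931), and Rplp0, another frequent reference gene, 0.908 (0.883 to 0.933). Of the 83 intervals, 21 lay above 1, 32 below it and 30 across it. Among 18042 nuclear genes with such an interval, 25.8% lay above 1 and 23.6% below.

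Fat cell genes differed far more between the same libraries. All 5 listed adipocyte genes were higher in replicate 2, with a summed level of 195.7 TPM in replicate 1 and 1711 in replicate 2 and a median log2 ratio of 3.02. The 3 brown adipocyte genes, with Ucp1 at 0.14 TPM and Cidea at 0.39 in replicate 1, summed to 16.7 and 232 TPM. The 4 cortical and 3 chromaffin genes had median log2 ratios of -0.40 and -0.44, from -1.12 for Th to -0.06 for Hsd3b1. The part of these cell types in the ratios of the members was not tested. Some translation lists stayed near the members in this comparison. None of the 27 initiation factors, 6 elongation factors or 78 mitochondrial ribosomal protein genes lay 2-fold apart, with medians of -0.08, -0.07 and -0.01. The 27 ribosome biogenesis genes lay lower, with a median of -0.28 with TMM factors, and no other scaling is given for them. Of these, 23 were lower in replicate 2, as were 6652 of 14660 coding genes, and none by 2-fold. Ratios of the 10 translation control genes ran from -0.56 to 0.87. Of the 8 other oligopyrimidine genes 1 lay 2-fold apart, the filament gene Vim, with 32.5 and 108.3 TPM.

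A share of the signal came from transcripts that the annotation does not call protein coding. The members have 505 annotated transcripts, of which 237 are protein coding, 177 retain an intron, 65 are processed transcripts without an open reading frame and 26 are marked for nonsense-mediated decay. By RSEM 17.9 ± 0.294% of member TPM lay outside protein-coding transcripts, the same as for all nuclear coding genes (17.9 ± 0.273%). Intron-retaining transcripts took 9.54 ± 0.279%, processed transcripts 5.06 ± 0.520% and decay transcripts 3.35 ± 0.0525%. By kallisto the share outside was 26.7 ± 0.123% for the members and 21.3 ± 0.427% for all nuclear coding genes.

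The members with the largest such share by RSEM were Rps16 (98.8% and 99.2%), Rpl35 (98.0% and 97.8%), Rps20 (97.3% and 97.9%), Rps26 (97.7% and 96.1%) and Rpl22l1 (92.3% and 95.8%). Kallisto gave the first 4 shares of 86.1% to 99.0%, but Rpl22l1 29.4% and 40.0%. In Rps26 the intron-retaining transcript Rps26-202 alone took 96.9% and 95.4% of the gene's TPM, and 96.8% and 97.2% by kallisto. In Rps16 it was Rps16-203, with 66.5% and 69.6%, and 84.7% and 86.9% by kallisto. In Rpl35 the processed transcript Rpl35-203 held 96.9% and 97.0%, and 98.3% and 98.0% by kallisto.

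Of the 77 canonical genes, 15 had over 50% of their TPM outside protein-coding transcripts by RSEM, 17 by kallisto and 11 by both. Rpl12 and Rpsa were over it by RSEM and not by kallisto, and Rpl7a, Rpl13a, Rpl14, Rpl22 and Rps28 by kallisto and not by RSEM. Rpl13a had 26.9% and 24.6% by RSEM but 84.1% and 86.1% by kallisto, which gave 321 and 325 TPM to the processed transcript Rpl13a-203 where RSEM gave 19.5 and 34.7. For Rps27 RSEM placed 824 and 859 TPM on Rps27-201 and none on Rps27-202, and kallisto placed none on the first and 679 and 755 on the second. Rps24-201 moved between animals by RSEM, from 174 to 291 TPM, and was at 0 and 0.506 by kallisto. Levels of single transcripts of these genes are therefore not read further.

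**Figure D5:**
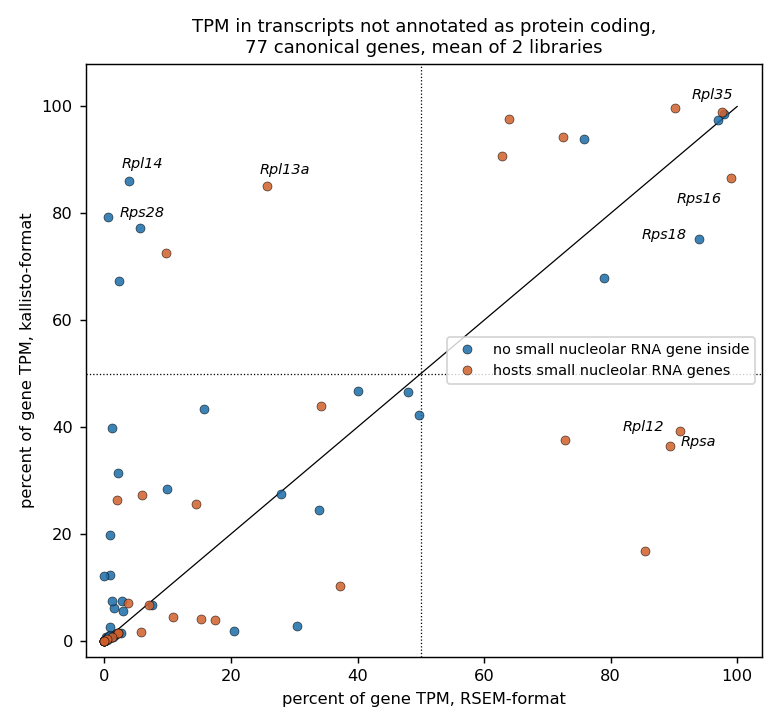
Percent of each canonical gene's TPM in transcripts not annotated as protein coding, mean of 2 libraries, by kallisto (vertical) against RSEM (horizontal), with orange for hosts of small nucleolar RNA genes and blue for the other genes. The 11 genes in the upper right quadrant exceed 50% by both programs, and Rpl13a, Rpl14 and Rps28 are among those that do so by kallisto only.

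Many ribosomal protein genes carry small nucleolar RNA genes in their introns. In the annotation 30 of the 77 canonical genes hold 58 such genes on their own strand, up to 5 in Rpl4. The median share outside protein-coding transcripts was 14.1 ± 2.74% in these hosts and 1.62 ± 0.0273% in the other 47 genes by RSEM. By kallisto it was 20.2 ± 3.82% in the hosts and 6.96 ± 0.934% in the others, a smaller contrast as a ratio but not as a difference. Hosts had a median level of 241 ± 17.7 TPM and the others 311 ± 8.27. The values describe 2 sets of genes in the same 2 libraries, and no test was made between them.

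The start sites were searched for pyrimidine runs, the sequence feature these mRNAs are known for. RefSeq windows of GRCm38.p6 were matched by symbol for 66 of the 86 members. An unbroken run of at least 8 C or T on the transcript strand within 20 bases either side of the start was found in 28 of them, or 42.4%, against 16.0% of all 32851 windows in the table. On the opposite strand, read as a run of A or G, it was found in 6.06% of members and 17.7% of all windows. Of 8 matched canonical genes among those with the highest levels, 4 had such a run, among them Rps27, Rpl13a and Rpl18, and 4 did not (Rpl41, Rps24, Rps28 and Rpl26, with longest runs of 3, 7, 4 and 4 bases). Rps27, Rpl13a and Rpl18 are shown because their run lay within the 30 bases printed, 10 before the start and 20 from it, with the run in capitals. The windows are chr3:90213629-90213658, chr7:45128726-45128755 (both minus strand) and chr7:45718061-45718090 (plus strand).
Rps27: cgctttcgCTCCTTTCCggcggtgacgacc
Rpl13a: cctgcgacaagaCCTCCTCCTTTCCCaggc
Rpl18: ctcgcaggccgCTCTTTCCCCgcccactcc

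The runs had 9, 14 and 10 bases. In 33 of the 66 members the RefSeq start lay within 20 bases of the start of the principal GENCODE transcript. In the rest it lay farther away, by up to 1425 bases in Rps10, so the stretch searched did not reach that start. The share of members with a run includes both kinds of window. A run, or the lack of one in a window, is a description of these letters only.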

How the data were processed

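Total RNA-seq of 2 adrenal glands was analysed from the deposited tables. Expected counts, TPM, posterior means and SDs of the count and, per transcript, the percent of its gene's TPM are in tables with RSEM's column names, per the file headers. Further deposited tables hold estimated counts and TPM under kallisto's column names. The authors used mm10 with GENCODE M21, per the text deposited with the tables. For the aligner and both quantifiers, the version is not given in the sources used here. TPM were computed by the authors over all entries, spike-ins included. Replicates were not pooled.

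Levels are deposited TPM, as mean ± SD over 2 animals. For ratios, counts were scaled with TMM (edgeR 4.0.16, R 4.3.3), rounded for the factors, and log2 was taken of CPM + 1. Exact conditional binomial 95% intervals (scipy 1.17.1) reflect counting alone, and PCR duplicates, which carry no molecular identifier here, make them too narrow. As an alternative, size factors were taken from DESeq2 1.42.0. No p-value was computed. For quantifiers, 1 TPM was added. TMM scaling was tried on counts simulated from replicate 1 with counting error alone. Without variation between animals, that trial cannot show which scaling suits these 2 libraries. Shared words of 31 bases came from GENCODE M21 transcripts, in the same sense, and the coding sequence was that of the principal transcript.

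Members and lists were chosen with earlier results of these data known. Named genes are Rpl13a, the P-stalk genes Rplp0, Rplp1 and Rplp2, Rpsa, the 5 extremes of each measure, all paralogues with their parents, and the highest members of each list. Some genes and 1 sequence are not reported here.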

Additional observations from a re-analysis of the deposited data

How the results depend on the processing

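With TPM from the kallisto tables in place of RSEM, the share of the ribosomal protein genes was 7.34%, their median 292.6 TPM, the ratio of small to large subunit medians 1.01 and the share outside protein-coding transcripts 26.7%. The last was 16.0% as a share of expected counts, and the share of coding TPM was 6.38% with posterior means. Canonical genes alone had a median of 290.2 TPM, and all members in place of canonical ones, an alternative chosen after seeing the data, a subunit ratio of 1.33. The median log2 ratio between animals was 0.00368 with total counts, 0.0357 with spike-ins, -0.0633 with TMM factors from coding genes and 0.000622 with kallisto counts. The median log2 ratio of the programs was 0.0258 on TPM as deposited and -0.0280 on estimated counts, the latter added after seeing the data. At a limit of 5% in place of 10%, 4 members had an uncertain count. The cause of these shifts was not tested.

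From 1 library at a time, the share ranged from 6.42% to 6.58%, the median from 245.2 to 276.6 TPM, the subunit ratio from 1.23 to 1.27, the median log2 ratio of the programs from 0.113 to 0.126, the members 1.5-fold apart between programs from 18 to 19 and the share outside protein-coding transcripts from 17.7% to 18.2%. Detection (83) and uncertain counts (1) did not move. No member was 2-fold apart between animals under any of the 9 alternatives tried for that count. Between programs, 19 members were 1.5-fold apart, 16 on estimated counts, and 13 at a limit of 2-fold. No paired analysis was possible because the labels give 1 group. With 2 animals, SDs are imprecise, and levels of members with near-identical copies depend on how a program divides reads.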
